A study of Mus musculus with 8 samples.

Results

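Footprints of suspension marrow cells lacking Dnmt2 were compared with those of wild-type suspension cells. The comparison used every UCSC known-gene ID with 10 or more counts in at least 2 of the 4 suspension libraries, which were 9879 of the 20154 IDs in the table (49.0%). Both genotypes were C57BL/6 mice at postnatal day 8, one wild type and one Dnmt2-/-, and each gave 2 suspension libraries, numbered 1 and 2. Marrow mononuclear cells were cultured in medium with 20% serum, 5 ng/ml thrombopoietin and 10 ng/ml each of stem cell factor and FLT3 ligand, and the floating haematopoietic cells were taken apart from the attached stroma. Ribosome-protected fragments of 28 to 31 nucleotides were sequenced after 5 min in cycloheximide and RNase I digestion. The sources used here do not describe the knockout allele, the number of mice behind a library, or what a replicate number marks. The p-values below therefore reflect only how much these libraries varied, and part of that variation may be technical.

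Dnmt2 (gene symbol Trdmt1) is an RNA methyltransferase that modifies a cytosine in the anticodon loop of certain tRNAs, among them tRNA-Asp. This methylation is known to protect the tRNAs from cleavage and to aid correct decoding. Ribosome profiling counts the mRNA fragments covered by ribosomes, so a footprint level combines the amount of an mRNA with how densely it is translated. The table pairs no ID with a gene name, and 0 of them occurred in the reference tables at hand, so IDs are described by level and behaviour. The level of Trdmt1 and the markers of the labelled cell type were not looked up for the same reason.

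The libraries held 4025780 and 2742492 counts in wild type (replicates 1 and 2) and 3586961 and 1713729 in the knockout. The IDs compared held 99.7% to 99.8% of each. Levels are given as CPM, counts scaled to a common library size after TMM correction for differences in library composition. Libraries of one number resembled each other across genotypes more than libraries of one genotype did: the 100 most abundant IDs shared 96 and 93 members between genotypes within numbers 1 and 2, against 72 between the wild-type libraries and 75 between the knockout libraries. The median absolute log2 difference between numbers was 0.38 in wild type and 0.43 in the knockout, and that between genotypes within a number was 0.17 and 0.20. Knockout was compared with wild type within each number, 1 with 1 and 2 with 2, as the comparison was defined.

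A group of IDs, most of moderate to high level, carried more footprints in the knockout, by a fitted median of 1.56-fold. Nearly all of these were higher for both numbers. Most of the rest, and all of the 10 most abundant IDs, showed no called difference. In edgeR's quasi-likelihood test with the replicate number as a block, 109 of 9879 IDs (1.10%) had an adjusted p under 0.05. Of these, 101 rose in the knockout (1.02% of those tested) and 8 fell (0.0810%). The fitted log2 fold changes of the 101 lay between 0.38 and 1.59 with a median of 0.64. Their share of all footprints went from 1.53% in wild type to 2.39% in the knockout for number 1, and from 1.85% to 2.51% for number 2. Since the test chose these IDs in those very libraries, the fold changes may be inflated, and the shares are a description and no further evidence. In bulk lysates, a change in the number of cells of one type and a change in footprints per cell cannot be told apart.

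The calls rested on the pairing and on a pooled spread. With 4 libraries and a block, each ID has 1 residual degree of freedom of its own, so edgeR took nearly all of its spread from the other IDs. The biological coefficient of variation common to all IDs, estimated before that pooling, was 7.02%. Without the block edgeR called 0 IDs, with 42 at an unadjusted p under 0.05 against 796 (8.06%) with it. DESeq2 with the block called 2, limma with voom 104, and edgeR with a bias-adjusted deviance 78.

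**Figure D1:**
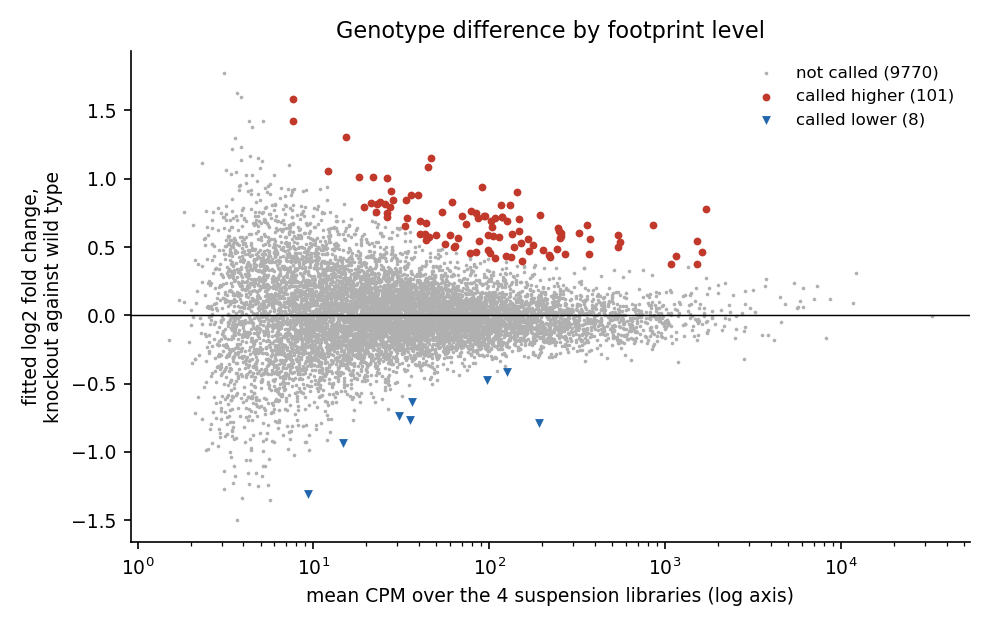
Fitted log2 fold change of knockout against wild type (vertical axis) for each of the 9879 IDs, against its mean CPM over the 4 suspension libraries (log axis). The 101 IDs called higher (red) lie mainly between about 10 and 1000 CPM, and the 8 called lower (blue) are few.

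Both numbers contributed to the 101 IDs. Within number 1 their median log2 difference was 0.72 (1.64-fold) and within number 2 it was 0.53 (1.44-fold). The difference had the same sign in both numbers for 99 of them, against 51.9% of all tested. More than 1.5-fold higher in both were 32, against 0.941% of all tested. Knockout levels lay above wild-type levels in all libraries for 70. The test chose the 101 IDs on these same differences, so these counts are a description and no further evidence. Over all IDs, 867 (8.78%) had both knockout libraries above both wild-type libraries and 822 (8.32%) had both below. Number 1, the more deeply sequenced, showed the larger difference in size for 75 of the 101 (74.3%), against 44.0% of all tested.

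Of the 8 IDs called lower, 6 had the same sign in both numbers, and the 4 libraries separated the genotypes for 1. Pooling the spread also called 4 IDs whose numbers disagreed in direction. The most unequal of those called higher had 201 and 327 counts in wild type against 154 and 625 in the knockout.

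**Figure D2:**
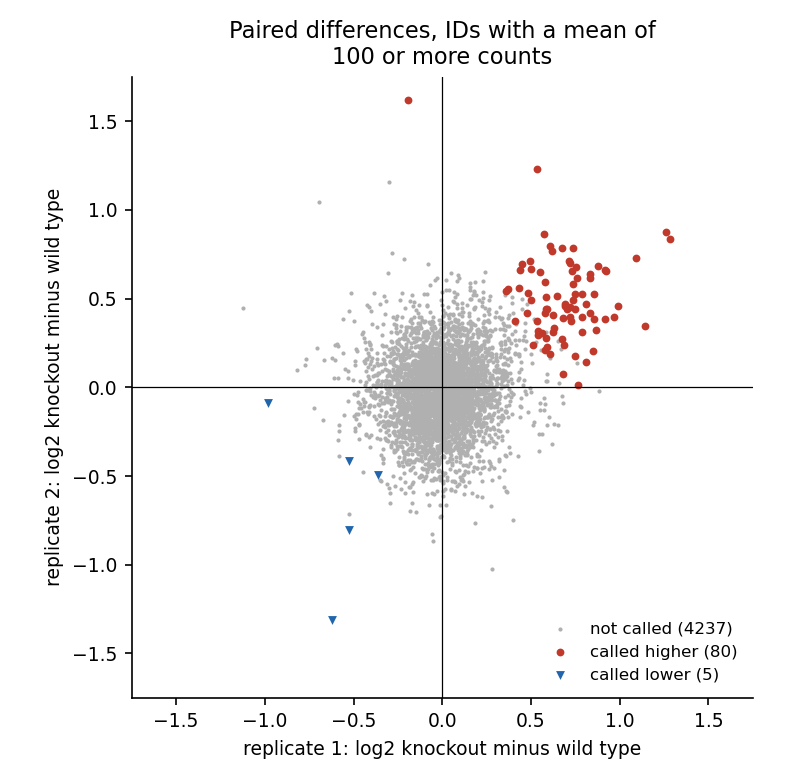
Log2 difference of knockout minus wild type (CPM + 0.5) in replicate 1 (horizontal) and replicate 2 (vertical) for the 4322 IDs with a mean of 100 or more counts, which include 80 of the IDs called higher (red) and 5 of those called lower (blue). A cloud of red points stands in the upper right, apart from the bulk, and the lower left holds few points. The test that set the colours used these same libraries, so the place of the red points follows from the choice.

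IDs could also be picked on one number and measured in the other, which shares no library with the first. Among IDs averaging 100 or more counts over both number 1 libraries, 84 were more than 1.5-fold higher in its knockout library. In number 2, 72 of the 84 (85.7%) were higher in the knockout too, with a median log2 difference of 0.40, and 21 (25.0%) were again past 1.5-fold. Over all 4931 IDs of that depth, 45.4% were higher in number 2 and 1.30% were past 1.5-fold. Picked on number 2, 32 IDs were more than 1.5-fold higher, and in number 1 28 of them (87.5%) were higher, with a median of 0.61 and 17 (53.1%) past 1.5-fold, against 47.2% and 1.86% of all 3553. IDs picked as higher in one number were thus mostly higher in the other.

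IDs picked as lower were fewer. Of 29 IDs more than 1.5-fold lower in number 1, 11 (37.9%) were lower in number 2, with a median log2 difference of 0.13, against 54.6% of all IDs of that depth. Of 11 picked on number 2, 9 (81.8%) were lower in number 1, with a median of -0.06, against 52.8% of all 3553. Past 1.5-fold lower again were 2 of the 29 (6.90%, against 1.38% of all of that depth) and 1 of the 11 (9.09%, against 0.422%). The difference between the higher and lower lists was not tested.

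The attached stroma libraries of the same study offered a further measure that took no part in these choices. There, 74 of the 101 IDs (73.3%) had a higher mean log2 level in the knockout, against 50.0% of all tested, and their median log2 difference was 0.12 against 0.00. The difference in stroma was thus small beside that in suspension, which was measured in the libraries that chose the IDs and may be inflated. For the 84 IDs picked on number 1, the median log2 difference was 0.40 in number 2 and 0.11 in stroma. For the 32 picked on number 2, it was 0.61 in number 1 and 0.16 in stroma. Whether the genotype difference was unlike between the fractions was not tested. Floating and attached cells were taken from the same kind of culture, so stroma may not be an independent repeat. Suspended cells left in the stroma libraries were not measured. Most of the 101 were IDs of the suspended cells: in wild type, 90 (89.1%) were lower in stroma than in suspension for number 1 and 86 (85.1%) for number 2, against 55.7% and 50.6% of all tested. Their median level was 25.1 and 14.6 CPM in wild-type stroma, and 23.7 and 16.7 CPM in the 2 knockout stroma libraries, whose columns carry no replicate number. In suspension it was 63.3 and 80.8 CPM in wild type and 103 and 114 CPM in the knockout. Each of the 84 IDs picked on number 1 could be set against the stroma of number 2, and 74 (88.1%) were lower in stroma there, against 50.2% of all. Of the 32 picked on number 2, 25 (78.1%) were lower in the stroma of number 1, against 57.5% of all 3553.

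The amount of attached-cell signal in the suspension libraries was measured with IDs picked on the other number. For number 1, 258 IDs that were more than 4-fold higher in wild-type stroma of number 2 held 2.79% of the wild-type and 2.18% of the knockout counts. For number 2, 218 IDs picked on number 1 held 3.30% and 3.79%. IDs more than 4-fold higher in suspension held 10.5% and 12.1% for number 1 (461 IDs), and 3.83% and 3.58% for number 2 (187 IDs). Beside wild type, the share of suspension-type IDs was thus higher in the knockout of number 1 and lower in that of number 2. These shares come from different IDs in each number. An exact permutation test of 2 against 2 libraries cannot give a p below 0.333, so it could not decide whether the shares differ. The part of cell composition in the called differences was not tested.

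The 2 IDs with the lowest p among those higher in both numbers showed the pattern at a high and a moderate level. The ID uc008ybh.1 had 1243 and 1268 CPM in the wild-type libraries (replicates 1 and 2) and 2281 and 2037 CPM in the knockout libraries. Both knockout libraries lay well above both wild-type libraries, by 1.83-fold in number 1 and 1.61-fold in number 2. Its log2 fold change was 0.78 ± 0.10 (SE; edgeR with the block, adjusted p = 3.69e-10). The ID uc007idj.2 had 58.8 and 67.7 CPM in wild type and 126 and 113 CPM in the knockout, again without overlap. The ratios were 2.14 and 1.66, and the log2 fold change was 0.94 ± 0.13 (SE; edgeR, adjusted p = 3.94e-10). With the same block, DESeq2 gave adjusted p-values of 0.000192 for uc008ybh.1 and 0.166 for uc007idj.2, and neither was called by edgeR without the block or with 6 libraries. Over 16 fits the first was called in 9 (adjusted p from 7.6e-11 to 1.00) and the second in 8 (3.94e-10 to 1.00). In stroma, uc008ybh.1 stood at 332 and 81.7 CPM in wild type and at 331 and 139 CPM in the knockout, far below its suspension levels. For uc007idj.2 these were 10.6 and 9.82 CPM, and 17.5 and 8.87 CPM.

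The 2 IDs with the lowest p among those lower in both numbers were dominated by the replicate number. The ID uc011zwy.1 had 409 and 69.2 CPM in wild type and 265 and 27.6 CPM in the knockout. The genotypes overlapped, since number 1 was high and number 2 low in each. Within the numbers, wild type exceeded the knockout by 1.54-fold and 2.51-fold, and the log2 fold change was -0.79 ± 0.12 (SE; edgeR, adjusted p = 8.78e-08). The ID uc007kzn.1 had 69.0 and 20.0 CPM in wild type and 34.7 and 18.8 CPM in the knockout, so its difference came almost wholly from number 1 (1.99-fold against 1.07-fold). The fitted log2 fold change was -0.76 ± 0.18 (SE; edgeR, adjusted p = 0.00287). Fits to 3 libraries without the block turned the direction of both IDs when wild-type replicate 1 was left out, and that of uc011zwy.1 when knockout replicate 2 was left out. With the block, DESeq2 gave them adjusted p-values of 0.161 and 1.00. Of 16 fits, uc011zwy.1 was called in 9 (adjusted p from 3.85e-08 to 1.00) and uc007kzn.1 in 8 (0.00189 to 1.00). In stroma, uc007kzn.1 was abundant, at 583 and 388 CPM in wild type and 405 and 560 CPM in the knockout.

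**Figure D3:**
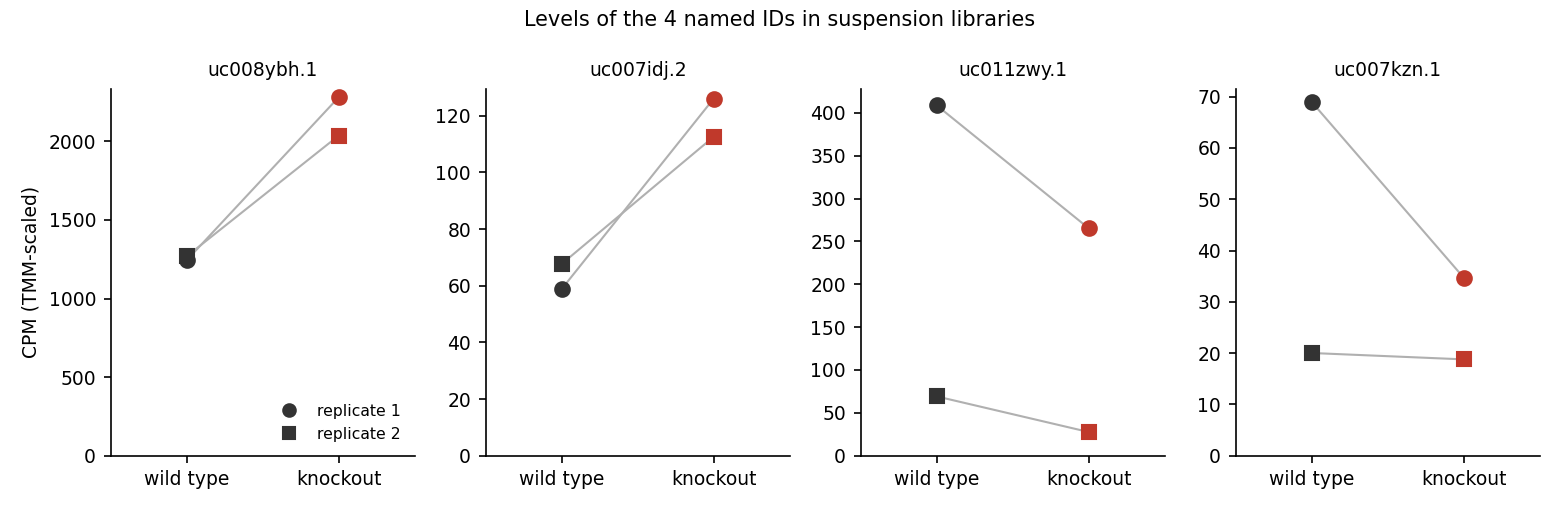
CPM of 4 IDs in the wild-type (black) and knockout (red) suspension libraries; circles are replicate 1, squares replicate 2, and lines join libraries of one number. The 2 IDs on the left separate the genotypes in all libraries; the 2 on the right separate mainly the numbers.

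Called IDs were unevenly spread over the levels of abundance. Under 10 CPM, 3 of 2297 IDs were called (0.131%), from 10 to 30 CPM 17 of 2951 (0.576%), and from 30 to 100 CPM 38 of 2769 (1.37%). From 100 to 300 CPM they were 37 of 1284 (2.88%), and at 300 CPM and over 14 of 578 (2.42%). The smallest called log2 change was 1.31 in the lowest level and 0.38 in the highest, so a change of the median called size could not be detected among scarce IDs. At 300 CPM and over, all 14 calls were higher in the knockout. The 10 most abundant IDs, at 5891 to 32877 CPM, included 0 calls, with mean paired log2 differences between -0.17 and 0.31 and adjusted p-values of 0.134 to 0.997 in edgeR's test. The most abundant of all had 33548 and 32334 CPM in wild type and 31875 and 33753 CPM in the knockout.

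The paired differences were widest among scarce IDs, and counting error was a smaller part of them at higher levels. Under 10 CPM, the SD over IDs of the log2 difference was 0.49 for number 1 and 0.63 for number 2, where counting error alone gives 0.43 and 0.56. From 100 to 300 CPM the SD was 0.20 and 0.21, where counting error gives 0.09 and 0.12, and at 300 CPM and over it was 0.21 and 0.17, where counting error gives 0.04 and 0.06. Counting error thus made up 74.8% and 79.1% of the variance in the lowest level and 4.69% and 12.4% in the highest. The spread beyond counting error ranged from 0.16 to 0.29 over the levels and numbers. In the 4 levels from 10 CPM upwards it lay between 0.16 and 0.20.

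The part common to both numbers stood out only among well-covered IDs. Each ID's log2 levels were split into a genotype part (the mean of both paired differences), a disagreement part (0.5 times the difference of number 1 minus that of number 2) and a replicate-number part, which all carry the same counting error. The mean square of genotype was 1.06 times that of disagreement under 10 CPM, 1.21 times from 10 to 30 CPM, 1.31 times from 30 to 100 CPM, 1.85 times from 100 to 300 CPM and 1.54 times at 300 CPM and over. In the highest level, genotype held 5.78% of the summed squares, disagreement 3.75% and number 90.5%. Replicate number thus outweighed genotype at every level.

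**Figure D4:**
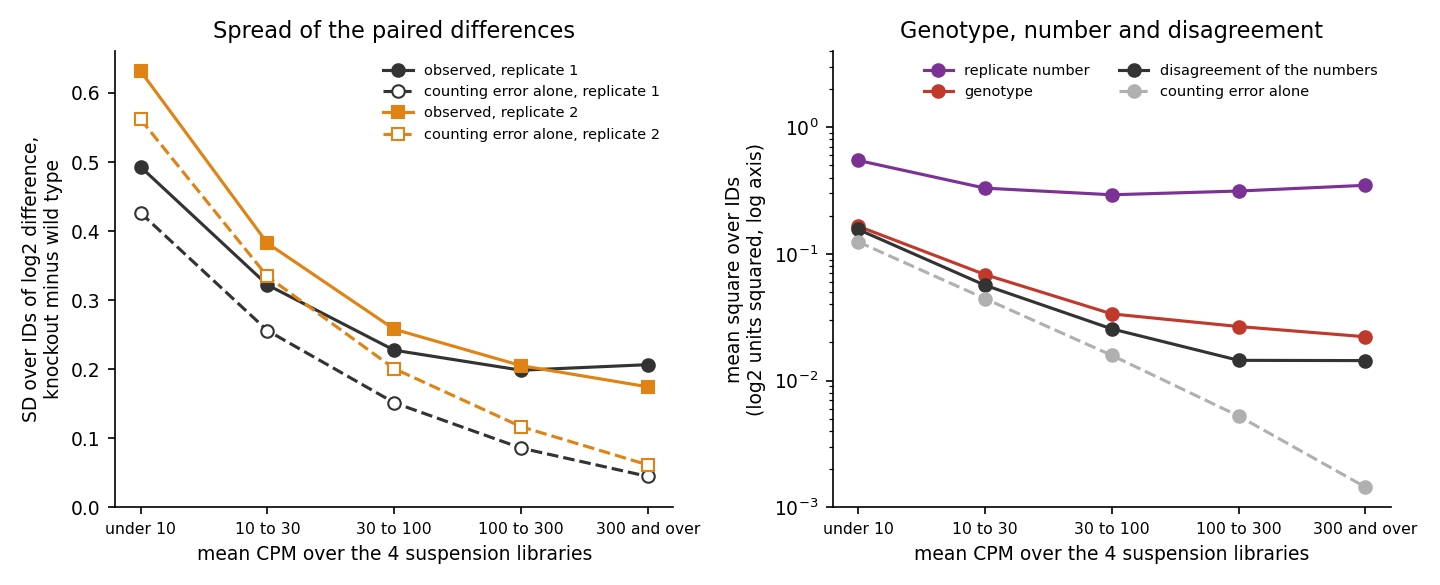
Left, SD over IDs of the log2 knockout minus wild type difference in each level of mean CPM (solid lines) and the SD from counting error alone (dashed), for replicates 1 and 2. Right, mean squares over IDs for replicate number, genotype, disagreement between the numbers and counting error (log axis); genotype lies above disagreement by 1.06 to 1.85 times, and number above both.

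Pearson's r across IDs between the paired differences of numbers 1 and 2 was 0.03 under 10 CPM, 0.10 from 10 to 30 CPM, 0.14 from 30 to 100 CPM, 0.31 from 100 to 300 CPM and 0.22 at 300 CPM and over. Spearman's rho was 0.04, 0.07, 0.09, 0.18 and 0.17 in the same levels. These are descriptions over 2297, 2951, 2769, 1284 and 578 IDs, which are not independent replicates, and the numbers share no library. The knockout minus wild type difference in stroma, from 4 further libraries, correlated with that of number 1 at r = 0.36 and with that of number 2 at r = 0.26 at 300 CPM and over. Under 10 CPM these were -0.02 and 0.02. The correlations were thus near 0 among scarce IDs and weak but positive among abundant ones. Gene length and base composition, which such differences can share, were not analysed here. Stroma and suspension libraries may also share cultures, so the correlations with stroma may not be independent of the suspension comparison.

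**Figure D5:**
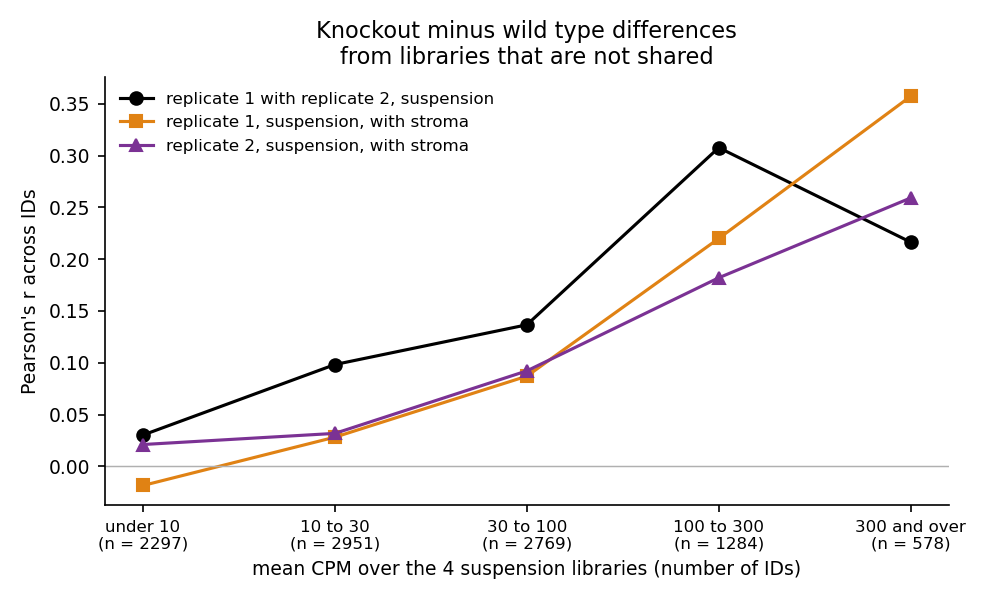
Pearson's r across IDs between knockout minus wild type log2 differences from libraries that are not shared, in 5 levels of mean CPM. Values lie near 0 under 10 CPM and at 0.22 to 0.36 at 300 CPM and over.

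The difference of number 1 also followed the contrast between the fractions. Across all 9879 IDs, it correlated with the stroma minus suspension difference of wild-type number 2 at r = -0.21, and at r = -0.36 at 300 CPM and over. For the difference of number 2 and the fractions of number 1, these were 0.02 and 0.10. Across IDs, the difference of number 1 thus leaned towards the suspension profile as seen in number 2. The difference of number 2 showed no such lean on the fractions of number 1. Each number was set against a different fraction contrast, so whether the numbers differ in this was not tested. A difference cannot show whether the knockout or the wild-type library of a number was shifted.

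Large changes common to both numbers were few, and those found were scarce IDs. A 2-fold difference in the same direction in both numbers was shown by 11 IDs (0.111%), 9 higher and 2 lower, and all 11 lay under 10 CPM, where 5 others differed 2-fold in opposite directions. At 30 CPM and over, 4631 IDs included 0 such cases. In that range, 21 IDs were more than 1.5-fold higher in both numbers, 1 was lower in both and 1 went in opposite directions. Over all levels these were 93 higher (0.941%), 46 lower (0.466%) and 86 opposite. No ID with 10 or more counts in 2 libraries was at 0 in both libraries of either genotype.

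The precision of the blocked fit grew with level. The median SE of the log2 fold change was 0.39 under 10 CPM, 0.23 from 10 to 30 CPM, 0.15 from 30 to 100 CPM, and 0.11 and 0.10 in the top levels. Less than 2-fold in either direction was the whole 95% interval for 40.3% of IDs in the lowest level and for 99.6% of those at 30 CPM and over. The interval stayed inside 1.5-fold for 0.131% and 92.7%. These intervals assume the pooled spread and a shared meaning of the replicate numbers.

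The centre of the differences was near 0 at every level. TMM scaling largely sets that centre over all IDs, so a shift shared by most IDs could not be seen here. The median of the mean paired log2 difference was 0.00 under 10 CPM and -0.02 at 300 CPM and over. At the edge of the count rule, the 143 IDs whose second-highest count was 10 had a median of -0.03 and the 118 IDs at 9, which were left out, had -0.15. A further 6771 IDs had no count in the 4 libraries.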

How the data were processed

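The authors deposited raw footprint counts, whole numbers per UCSC known-gene ID and library. Bowtie and the mouse build mm9 are named, per the submitters' processing notes. The aligner's version, counting tool, transcript set, strand setting and handling of reads with several matches were not given in the sources used here. No RNA libraries were analysed here. Columns were matched to samples by the labels, and 0 columns were left out. The 2 knockout stroma columns share a header and served as unnumbered libraries.

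Counts were tested with edgeR 4.0.16 (glmQLFit, glmQLFTest) in R 4.3.3, with TMM scaling, genotype and replicate number as terms, and Benjamini-Hochberg adjustment over 9879 IDs at 0.05. The libraries are paired by number because the comparison was defined so. Deviations of same-numbered libraries from their group means correlated at 0.71 across IDs. SE is the log2 fold change divided by the root of F, and is approximate. Paired differences are of log2(CPM + 0.5). Stroma CPM and the differences between fractions used TMM scaling over all 8 libraries, and suspension CPM used that over the 4. Counting error was computed from Poisson variances and covers counting only. DESeq2 1.42.0, limma 3.58.1 and the fits in the closing section were alternatives. The fit was also run on simulated data. These were drawn with a single spread for all IDs, so that run could not test the pooling of the spread. IDs named are the 2 of lowest p in each direction, with the same sign in both numbers and a mean of 30 or more counts, since the table gives no gene names. IDs, levels and tests were chosen with earlier results of these data known.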

Additional observations from a re-analysis of the deposited data

How the results depend on the processing

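The calls depended on the pairing and on the tool. Without the replicate block, edgeR called 0 IDs in the 4 suspension libraries and 0 in a fit to all 8 libraries, and a replicate block fitted to the 6 numbered libraries also gave 0. The paired fit to the 4 called 109, and all 109 had the same sign in each of these fits. Each fit takes the genotype difference from the same 4 suspension libraries, so the shared sign is no further evidence. DESeq2 with the block called 2. Leaving out one suspension library each, with no block, gave 0 to 2 calls, and 101 to 107 of the 109 kept their sign; with the block no residual degree of freedom is left, so that fit was not run. Other scalings, count filters, limma, robust spread and bias-adjusted deviance, all with the block, gave 78 to 111. The last 2 were chosen after seeing the data.

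Differences past 2-fold in both numbers fell from 11 IDs to 0 with CPM + 2 and to 0 among IDs with a mean of 100 or more counts, and 139 passed at 1.5-fold. Those well-counted IDs gave a correlation of the paired differences of 0.20 (0.08 over all IDs). Their genotype share of the summed squares was 8.39% (14.5%) and their median difference was -0.021 (-0.011). Over all IDs, the median difference was -0.028 with raw library sizes, -2.6e-05 in number 1 alone and -0.011 in number 2 alone. In the top of 5 equal groups of IDs by level the correlation was 0.29. Fitted log2 values turned without wild-type replicate 1 for uc011zwy.1 (1.10) and uc007kzn.1 (0.44), and without knockout replicate 2 for uc011zwy.1 (0.15). Those fits had no block and left genotype unbalanced over the numbers, and the cause was not tested. Depth limits the scarce IDs above all.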
